A study of Mus musculus with 6 samples.

Results

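Antibody light chains carry a variable domain whose gene is assembled in each B cell from 1 V segment and 1 J segment, and mice have a kappa and a lambda light chain locus. The variable segments of both loci were followed here in mouse colon next to tumours. They were chosen by name: every row of the deposited table whose mouse symbol starts with Igkv or Iglv and whose annotation is not a pseudogene, with no threshold on its values. This gave 91 segments of 21374 genes in the table, 88 of the kappa locus on chromosome 6 and 3 of the lambda locus on chromosome 16. The annotation (GENCODE release M21, GRCm38) lists 103 such segments, and the other 12 were not analysed here.

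Bulk RNA sequencing covered 3 libraries labelled wild type (WT 1 to WT 3) and 3 labelled Otud1-/- (Otud1-/- 1 to Otud1-/- 3), all from C57BL/6 males. Both genotypes received an intraperitoneal injection of azoxymethane, a colon carcinogen, on day 0 at 6 weeks of age, and then 1.5% dextran sulfate sodium, an agent toxic to colonic epithelium, in 3 rounds (4 days each, with 14 days on water after it). Distal colon was collected on day 81 from mice of 18 weeks, and RNA came from the tissue beside the removed tumours. The labels do not say how Otud1 was disrupted, nor whether each library is 1 animal. The p-values below therefore reflect differences among 6 libraries, part of which may be technical.

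The libraries held 15300937 to 19406407 reads assigned to genes, recovered from the deposited normalised values. A value below is a normalised read count, meaning reads over the library's size factor. Otud1, the gene named in the labels, went against them, with 111, 45.1 and 48.9 normalised reads in WT 1, 2 and 3 and 141, 150 and 208 in Otud1-/- 1, 2 and 3 (limma, Benjamini-Hochberg adjusted p = 0.0934). Directions below are therefore between the libraries as labelled. WT 1 (-86.5) and Otud1-/- 1 (83.3) stood apart on the first principal component of all genes, where the others lay between -25.8 and 28.2.

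In plasma cells and B cells a rearranged V segment is transcribed together with the constant region downstream, Igkc for kappa or an Iglc gene for lambda, so reads on a V segment count light chain messages that use it. Each B cell clone makes 1 light chain, and the gut wall is rich in plasma cells that secrete IgA. Kappa chains are far more common than lambda chains in mice. The kappa locus has many V segments in both orientations. Segments on the same strand as Igkc join by deletion of the DNA between, and those on the opposite strand by inversion. The lambda locus of the reference strain holds only Iglv1, Iglv2 and Iglv3.

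The germline coding sequences of 6 segments are shown because the results below turn on them: Iglv1, Igkv16-104 and Igkv8-30 each led a library, Igkv1-117 led the kappa reads of 2 libraries, and Igkv15-103 and Igkv4-55 passed the test between the labels. They are the 3′ ends of the V exons as printed in the GENCODE M21 transcripts on GRCm38, 5′ to 3′ on the coding strand, over at most 300 bases. Capitals run from the last in-frame cysteine codon to the 3′ end, the germline part of the segment that enters the junction with J.
Iglv1, chr16:19085017-19085316, minus strand: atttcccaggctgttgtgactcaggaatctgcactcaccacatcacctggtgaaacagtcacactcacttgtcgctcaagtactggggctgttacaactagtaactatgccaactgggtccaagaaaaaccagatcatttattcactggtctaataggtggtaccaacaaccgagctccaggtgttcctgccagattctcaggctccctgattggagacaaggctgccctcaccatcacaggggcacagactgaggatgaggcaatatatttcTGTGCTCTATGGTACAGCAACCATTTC
Igkv16-104, chr6:68425774-68426072, plus strand: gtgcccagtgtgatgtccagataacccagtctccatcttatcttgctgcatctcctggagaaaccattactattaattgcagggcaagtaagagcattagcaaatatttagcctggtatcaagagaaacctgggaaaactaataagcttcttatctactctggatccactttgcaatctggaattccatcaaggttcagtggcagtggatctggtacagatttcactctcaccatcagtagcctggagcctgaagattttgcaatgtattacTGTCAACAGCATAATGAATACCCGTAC
Igkv1-117, chr6:68121528-68121827, plus strand: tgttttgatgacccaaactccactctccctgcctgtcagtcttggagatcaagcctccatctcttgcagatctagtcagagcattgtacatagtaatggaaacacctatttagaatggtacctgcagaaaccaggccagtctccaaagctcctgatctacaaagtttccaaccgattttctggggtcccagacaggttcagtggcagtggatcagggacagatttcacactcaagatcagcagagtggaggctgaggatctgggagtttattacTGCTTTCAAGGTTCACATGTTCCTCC
Igkv8-30, chr6:70117061-70117360, minus strand: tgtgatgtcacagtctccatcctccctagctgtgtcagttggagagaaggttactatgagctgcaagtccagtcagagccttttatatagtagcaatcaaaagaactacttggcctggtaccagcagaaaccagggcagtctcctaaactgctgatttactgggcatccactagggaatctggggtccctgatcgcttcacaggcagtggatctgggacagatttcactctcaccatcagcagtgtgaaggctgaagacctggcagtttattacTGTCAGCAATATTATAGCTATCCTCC
Igkv15-103, chr6:68437628-68437925, plus strand: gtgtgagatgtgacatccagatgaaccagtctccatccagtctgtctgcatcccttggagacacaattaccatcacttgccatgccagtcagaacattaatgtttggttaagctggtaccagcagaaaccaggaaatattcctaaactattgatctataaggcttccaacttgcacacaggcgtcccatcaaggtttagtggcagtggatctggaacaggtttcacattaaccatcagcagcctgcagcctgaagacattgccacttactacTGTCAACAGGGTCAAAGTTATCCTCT
Igkv4-55, chr6:69607275-69607574, minus strand: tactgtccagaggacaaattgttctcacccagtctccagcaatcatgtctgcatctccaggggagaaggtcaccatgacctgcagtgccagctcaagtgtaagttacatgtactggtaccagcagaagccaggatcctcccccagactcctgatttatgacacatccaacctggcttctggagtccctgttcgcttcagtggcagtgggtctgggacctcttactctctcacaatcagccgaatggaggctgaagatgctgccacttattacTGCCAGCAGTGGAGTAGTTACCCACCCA

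Near-identical segments limit how reads can be told apart. Among the 91 segments the V exon was 97.05% identical between Iglv1 and Iglv2 and 97.3% between Igkv4-59 and Igkv4-70, both of which bear on values below. In these 3 sequences capitals mark the aligned bases that differ from the partner.
Iglv2, chr16:19260401-19260700, minus strand: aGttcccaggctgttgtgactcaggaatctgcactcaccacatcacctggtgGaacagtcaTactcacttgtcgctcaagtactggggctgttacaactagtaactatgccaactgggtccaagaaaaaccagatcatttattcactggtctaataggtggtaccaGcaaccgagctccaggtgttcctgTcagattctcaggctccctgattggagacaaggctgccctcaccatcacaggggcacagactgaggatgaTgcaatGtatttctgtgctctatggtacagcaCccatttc
Igkv4-59, chr6:69438218-69438517, minus strand: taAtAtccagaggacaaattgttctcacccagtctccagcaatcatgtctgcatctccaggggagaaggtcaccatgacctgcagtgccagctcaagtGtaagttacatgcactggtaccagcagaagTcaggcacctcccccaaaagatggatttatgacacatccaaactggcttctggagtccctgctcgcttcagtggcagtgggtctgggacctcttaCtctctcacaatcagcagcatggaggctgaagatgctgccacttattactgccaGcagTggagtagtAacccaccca
Igkv4-70, chr6:69267888-69268186, minus strand: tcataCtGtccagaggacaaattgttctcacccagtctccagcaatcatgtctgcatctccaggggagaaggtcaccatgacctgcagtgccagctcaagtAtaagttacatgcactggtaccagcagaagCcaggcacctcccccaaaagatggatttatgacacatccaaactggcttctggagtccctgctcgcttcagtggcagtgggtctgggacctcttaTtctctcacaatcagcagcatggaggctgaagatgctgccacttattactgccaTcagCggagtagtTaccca
No segment was identical to another annotated one, but 14 of 91 had a neighbour of at least 97% identity and 67 one of at least 90% (median of the best match 95.0%, counting annotated pseudogenes and segments without a row). How the authors treated reads that match several segments is not given in the sources used here, so the split within such pairs is uncertain. Iglv3 was only 55.7% identical to Iglv1.

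Light chain V segments took 0.0521% to 0.165% of the reads of a library. The means of single segments over the 6 libraries spanned 1.84 (Igkv8-16) to 2358 (Iglv1) normalised reads, with a median of 131. Of the 91 segments, 54 had a mean of at least 100 and 11 a mean under 10, and 78 had reads in all 6 libraries. Most segments in the table were thus detected in every library. Exon lengths differed little (338 to 404 bases), and 9 of the 10 leading segments by reads were also among the 10 leading by reads per kilobase.

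Kappa V reads were lower in the libraries labelled Otud1-/-. Summed over the 88 segments they were 28089, 25494 and 16525 normalised reads in WT 1, 2 and 3 (23369 ± 6068 SD, n = 3) and 7321, 15858 and 9281 in Otud1-/- 1, 2 and 3 (10820 ± 4472 SD, n = 3). The means differed 2.16-fold and the labels did not overlap, though WT 3 and Otud1-/- 2 lay close together. As a percentage of all reads they did overlap, with 0.148%, 0.140% and 0.0851% in WT 1, 2 and 3 and 0.0472%, 0.0921% and 0.0569% in Otud1-/- 1, 2 and 3. The log2 ratio of the means was -1.11 with the deposited scaling and -0.93 after scaling to total reads. No test was made of the sum. In bulk tissue fewer cells of a type and less RNA per cell cannot be told apart.

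**Figure D1:**
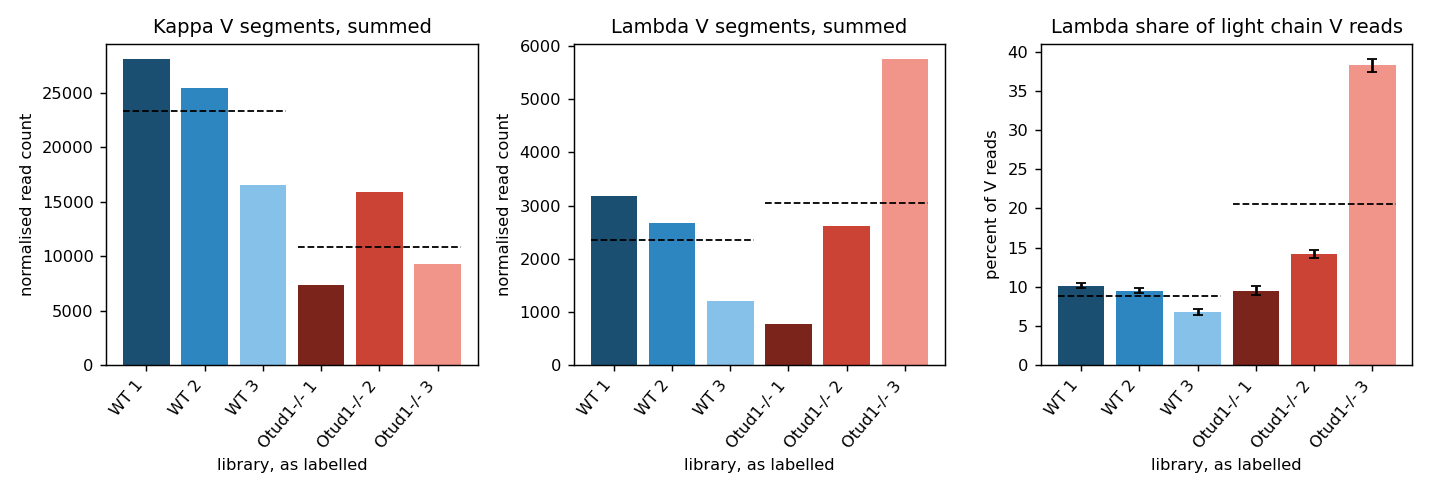
Bars give the summed normalised read count of the 88 kappa segments (left) and the 3 lambda segments (middle) and the lambda percentage of light chain V reads (right) in each library as labelled, with dashed lines at the label means and exact 95% binomial intervals on the right. Kappa sums reach at most 15858 in the Otud1-/- libraries and at least 16525 in the WT libraries, while the lambda panels are set apart by Otud1-/- 3 at 5747 normalised reads and 38.2%.

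Lambda V reads did not follow the same split. Summed over Iglv1, Iglv2 and Iglv3 they were 3174, 2679 and 1197 in WT 1, 2 and 3 (2350 ± 1029 SD, n = 3) and 767, 2616 and 5747 in Otud1-/- 1, 2 and 3 (3043 ± 2517 SD, n = 3). The labels overlapped widely, and the lowest and the highest library both carried the Otud1-/- label. The log2 ratio of the means was 0.37, and it was -0.47 without Otud1-/- 3, so its sign rests on that library.

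The lambda share of light chain V reads was 10.2%, 9.51% and 6.75% in WT 1, 2 and 3 and 9.49%, 14.2% and 38.2% in Otud1-/- 1, 2 and 3. For Otud1-/- 3 the exact (Clopper-Pearson) 95% interval was 37.5% to 39.0%, from 5695 lambda reads of 14892. This interval and those below cover counting error only. The difference of the label means, 11.8 percentage points, was close to the pooled SD of 10.99 between libraries, and without Otud1-/- 3 it was 3.02. Per kilobase of exon the share in Otud1-/- 3 was 37.2%. The 1 library at 38.2% stood far above the other 5, which lay between 6.75% and 14.2% whatever their label.

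The constant regions gave the same order at the top. Lambda constant reads (Iglc1, Iglc2 and Iglc3) per kilobase made up 4.98%, 3.89% and 3.09% of light chain constant reads in WT 1, 2 and 3 and 4.50%, 6.30% and 16.9% in Otud1-/- 1, 2 and 3. Otud1-/- 3 was again highest and WT 3 lowest. The percentages were smaller than those on V segments, and the cause was not tested.

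Iglv1 was the leading segment of 4 libraries and among the 3 leading in all 6. It had 2617, 2356 and 931 normalised reads in WT 1, 2 and 3 and 655, 2349 and 5243 in Otud1-/- 1, 2 and 3. The label means were 1968 ± 907 and 2749 ± 2320 (SD, n = 3 each), the labels overlapped, and the log2 change was 0.16 ± 0.91 SE (limma, adjusted p = 0.945). In Otud1-/- 3 this segment alone took 34.9% of light chain V reads (exact 95% interval 34.1% to 35.7%), against 5.25% to 12.7% elsewhere. Iglc1, a constant region that Iglv1 is joined to, moved with it across libraries, at 1961, 1242 and 736 in WT 1, 2 and 3 and 562, 2325 and 4230 in Otud1-/- 1, 2 and 3. Iglc3, another partner of Iglv1, did not rise with it in Otud1-/- 3. It had 364, 633 and 226 normalised reads in WT 1, 2 and 3 and 80.2, 184 and 125 in Otud1-/- 1, 2 and 3. These were lower without overlap, as the kappa sums were, but not called (log2 change -1.60 ± 0.44 SE, limma, adjusted p = 0.124). Iglc2 and Iglc3 are close copies, so their split is uncertain. Iglc2 had 1136, 685 and 570 normalised reads in WT 1, 2 and 3 and 277, 719 and 868 in Otud1-/- 1, 2 and 3. Its labels overlapped (log2 change -0.45 ± 0.51 SE, limma, adjusted p = 0.678). The Iglc3 values may therefore not stand for that gene alone.

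Iglv2 and Iglv3, which mostly join the Iglc2 cluster, were well below Iglv1 in every library. Iglv2 had 286, 224 and 182 normalised reads in WT 1, 2 and 3 and 77.7, 178 and 296 in Otud1-/- 1, 2 and 3 (log2 change -0.50 ± 0.47 SE, limma, adjusted p = 0.604). Iglv3 had 271, 98.8 and 84.6 and then 34.1, 88.9 and 209 (log2 change -0.60 ± 0.76 SE, limma, adjusted p = 0.714). For both, Otud1-/- 1 was the lowest library and the labels overlapped. The ratio of Iglv1 to Iglv2 reads ran from 5.13 in WT 3 to 17.7 in Otud1-/- 3, so the rise in that library was larger for Iglv1 than for its near-identical neighbour.

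**Figure D2:**
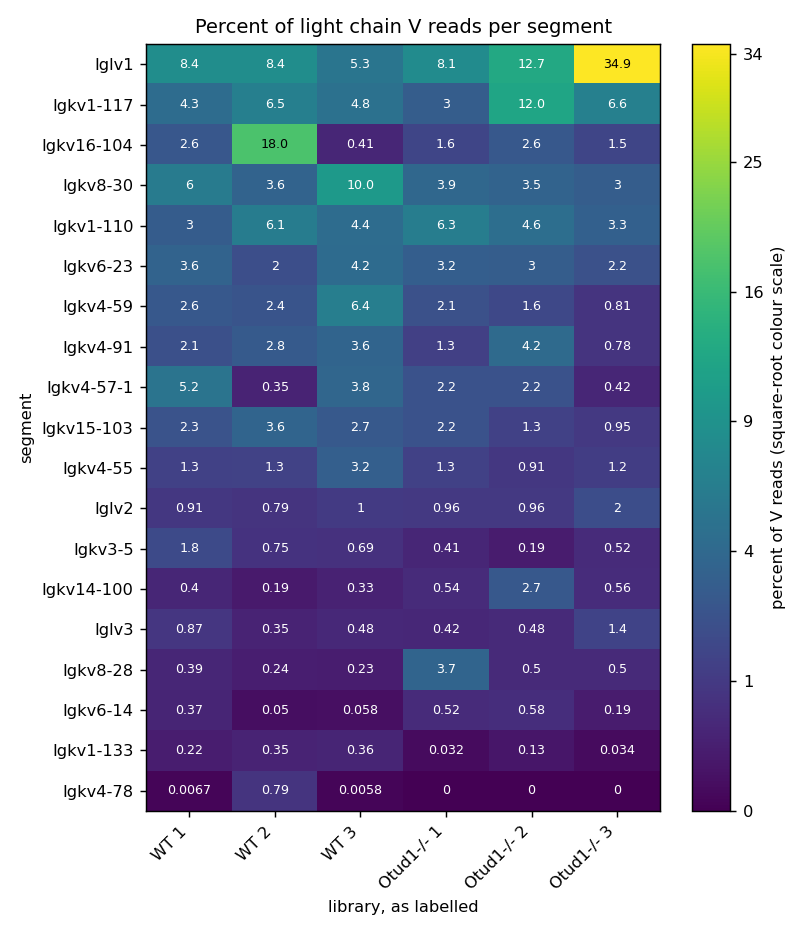
Each cell gives the percentage of the light chain V reads of a library (columns, as labelled) on 1 segment (rows, ordered by mean normalised read count; square-root colour scale). The brightest cells are Iglv1 in Otud1-/- 3 (34.9%), Igkv16-104 in WT 2 (18.0%) and Iglv1 in Otud1-/- 2 (12.7%).

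Among the kappa segments the leader changed from library to library. Igkv16-104, the only member of its family in the table, had 801, 5069 and 73.4 normalised reads in WT 1, 2 and 3 and 125, 484 and 226 in Otud1-/- 1, 2 and 3. WT 2 held 74.8% of the sum over the libraries, and there the segment took 18.0% of light chain V reads (exact 95% interval 17.6% to 18.4%). Its closest annotated relative was only 75.2% identical (Igkv11-125). The label means of 1981 ± 2699 and 278 ± 185 (SD, n = 3 each) thus rest on WT 2, and the change was not called (log2 change -1.48 ± 1.72 SE, limma, adjusted p = 0.696).

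Igkv1-117 led the kappa reads of Otud1-/- 2 and Otud1-/- 3, with 14.0% and 10.6% of them. Its normalised reads were 1355, 1828 and 853 in WT 1, 2 and 3 and 244, 2217 and 988 in Otud1-/- 1, 2 and 3 (log2 change -0.66 ± 0.90 SE, limma, adjusted p = 0.741). The labels overlapped, with the highest and the lowest value both in Otud1-/- libraries. Igkv1-110, its neighbour of 96.8% identity, had 929, 1723 and 775 and then 507, 841 and 492 (log2 change -0.85 ± 0.35 SE, limma, adjusted p = 0.254), and it was the leading kappa segment of Otud1-/- 1.

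Igkv8-30 led the kappa reads of WT 1 and WT 3. It had 1876, 1002 and 1775 normalised reads in WT 1, 2 and 3 and 317, 647 and 451 in Otud1-/- 1, 2 and 3. The labels did not overlap, but the change missed the threshold (log2 change -1.72 ± 0.34 SE, limma, adjusted p = 0.0757). It was nonetheless among the 10 leading segments of every library, as were Igkv1-110, Igkv1-117 and Iglv1. The 10 leading segments of the 6 libraries comprised 25 different ones, 12 of which led in 1 library only.

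Igkv4-57-1, Igkv4-91 and Igkv6-23 were also among the 10 leading by mean, with SDs within labels of 1.74, 1.16 and 0.54 on the log2 scale, against 2.27 for Igkv16-104. Igkv4-57-1 had 1614, 99.7 and 681 normalised reads in WT 1, 2 and 3 and 178, 412 and 62.6 in Otud1-/- 1, 2 and 3, a spread of more than an order of magnitude within the WT label. Igkv4-91 had 641, 780 and 635 and then 103, 777 and 117, so Otud1-/- 2 lay in the WT range and the other Otud1-/- libraries far below it. Igkv6-23 had 1113, 561 and 753 and then 255, 562 and 327, and the labels met at about 560. None of these 3 segments was called (limma, adjusted p = 0.579, 0.351 and 0.172).

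Of the 90 segments tested, 3 fell in the libraries labelled Otud1-/- and none rose (limma, adjusted p under 0.05 over 21281 genes). Of all tested genes 0.949% were called, 0.667% as lower and 0.282% as higher. All 3 were kappa segments. The 1 segment not tested was Igkv18-36. It had reads only in WT 2 (27.3 normalised reads) and Otud1-/- 3 (1.01), too few libraries for the filter.

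Igkv15-103 had 724, 1017 and 479 normalised reads in WT 1, 2 and 3 and 180, 244 and 142 in Otud1-/- 1, 2 and 3 (log2 change -1.93 ± 0.30 SE, limma, adjusted p = 0.0407). Igkv4-59 had 824, 669 and 1129 and then 173, 300 and 121 (log2 change -2.20 ± 0.35 SE, limma, adjusted p = 0.0469). Igkv4-55 had 405, 379 and 562 and then 104.1, 168 and 177 (log2 change -1.60 ± 0.24 SE, limma, adjusted p = 0.0292). In all 3 the labels stood clear of each other.

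The sizes of these changes were steadier than the calls. Without WT 1, without WT 2 or without WT 3 all 3 calls were lost (limma, adjusted p = 0.0668 to 0.173), with log2 changes of -2.38 to -1.42, while the calls over all genes went from 202 to 35, 11 and 10. Without Otud1-/- 2 all 3 were still called (limma, adjusted p = 0.00747 to 0.0413), where 340 genes were called in all. Without Otud1-/- 1, or without Otud1-/- 3, only Igkv4-55 of the 3 was still called (limma, adjusted p = 0.0112 and 0.0440). There 333 and 114 genes were called in all. With edgeR on the recovered reads 0 of 77 segments were called (adjusted p = 0.0528 to 0.0539 for these 3), against a background of 0.281% called lower. At an unadjusted edgeR p under 0.05 there were 27, where 22.6% of all genes passed. DESeq2 called 22 of 78 segments, all lower, against a background of 4.42%. Igkv4-70, near-identical to Igkv4-59, had 12.7, 15.99 and 133 normalised reads in WT 1, 2 and 3 and 17.1, 25.9 and 5.05 in Otud1-/- 1, 2 and 3, so WT 3 was the highest library of both.

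**Figure D3:**
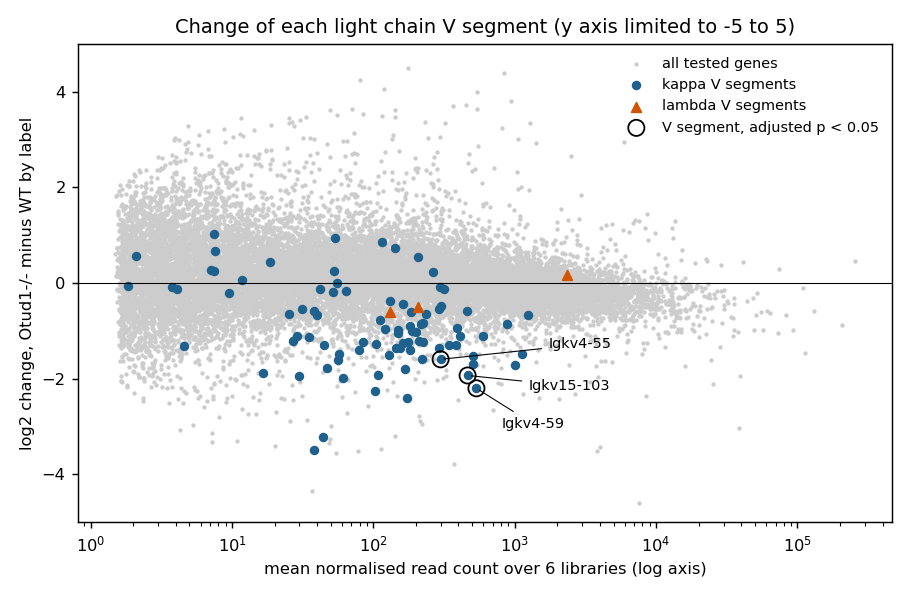
Each point is a tested gene, with its mean normalised read count over 6 libraries (log axis) against its log2 change, Otud1-/- minus WT by label. Most kappa segments (blue) lie below 0, the 3 lambda segments (orange triangles) lie between -0.60 and 0.16, and the 3 called segments are ringed.

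Beyond these, most segments leaned the same way without passing. Changes were negative for 75 of 90 tested segments and positive for 15, where 48.3% of all tested genes had a negative change. The median log2 change was -0.97 (quartiles -1.39 and -0.19) against 0.02 for all tested genes. Scaling to total reads moved the median of all genes by 0.20, and the segments' median relative to it was then -0.97, compared with -0.98 with the deposited scaling. The segments share libraries and largely the same cells, so they are not independent.

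At an unadjusted p under 0.05, 25 of 90 segments passed, all lower, where 19.5% of all genes passed, 9.97% as lower. The labels did not overlap for 20 segments that were lower, or 22.2% of the 90, against a background of 13.3%, and for 1 that was higher (background 13.0%). That one, Igkv5-45, had 16.9, 11.3 and 19.4 normalised reads in WT 1, 2 and 3 and 20.5, 23.6 and 20.2 in Otud1-/- 1, 2 and 3, a small difference (limma, adjusted p = 0.535). Its 98.99% identical partner Igkv5-43 had 361, 118 and 145 and then 79.4, 77.6 and 114, lower without overlap.

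The 3 largest negative changes at a mean of at least 10 were in Igkv4-78, Igkv1-133 and Igkv3-5. Igkv4-78 had 2.11, 224 and 1.02 normalised reads in WT 1, 2 and 3 and no read in any Otud1-/- library, which allows up to 0.0317%, 0.0183% and 0.0201% of the V reads of Otud1-/- 1, 2 and 3. WT 2 held 98.6% of its summed reads. Igkv1-133 had 67.5, 98.8 and 64.2 and then 2.56, 24.7 and 5.05 (log2 change -3.22 ± 0.68 SE, limma, adjusted p = 0.0681). Igkv3-5 had 559, 213 and 122 and then 33.3, 36.0 and 77.7 (log2 change -2.40 ± 0.60 SE, limma, adjusted p = 0.109), without overlap for either.

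The 3 largest positive changes at a mean of at least 10 were in Igkv14-100, Igkv8-28 and Igkv6-14. For Igkv14-100 and Igkv8-28 a single Otud1-/- library stood far above the rest, while Igkv6-14 was highest in WT 1. Igkv14-100 had 127, 53.6 and 58.1 normalised reads in WT 1, 2 and 3 and 43.5, 493 and 83.8 in Otud1-/- 1, 2 and 3. Igkv8-28 had 122, 67.7 and 40.8 and then 296, 92.2 and 74.7. Igkv6-14 had 117, 14.1 and 10.2 and then 41.8, 108 and 29.3. In each of the 3 the labels overlapped (limma, adjusted p = 0.728, 0.487 and 0.653).

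Such excess in a single library was common among the segments. Among the 80 with a mean of at least 10, 17 (21.3%) had more than 50% of their summed normalised reads in 1 library, as did 1.04% of the 16587 tested genes at that level. WT 2 held 7 of the 17, WT 1 held 5, WT 3 and Otud1-/- 2 held 2 each and Otud1-/- 1 held 1. Besides Igkv16-104 and Igkv4-78, examples were Igkv12-38 with 188 normalised reads in WT 3 and at most 19.6 elsewhere, Igkv4-61 with 389 in WT 2 and at most 48.4 elsewhere, and Igkv6-17 with 1443 in WT 1 and at most 271 elsewhere. These 3 were chosen after their values were seen. The SD within labels on the log2 scale had a median of 0.97 over the 80 segments and 0.24 over all tested genes at that level.

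Reads were spread over many segments in some libraries and few in others. The effective number of segments, the inverse Simpson index, is the number of equally used segments that would give the same concentration. It was 33.7, 17.5 and 28.2 in WT 1, 2 and 3 (26.4 ± 8.22 SD, n = 3) and 38.0, 21.2 and 7.44 in Otud1-/- 1, 2 and 3 (22.2 ± 15.3 SD, n = 3). The labels overlapped, with the most even and the most concentrated library both labelled Otud1-/-, and the difference of the means (-4.27) was smaller than the pooled SD of 12.3.

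The lowest values, in Otud1-/- 3 and WT 2, each rested on 1 segment. Without Igkv16-104 the index of WT 2 was 27.2, and without Iglv1 that of Otud1-/- 3 was 33.2. The index of Otud1-/- 2, at 21.2, was still only 24.5 without Iglv1. The difference of the label means was 6.42 without Iglv1 and 3.11 without Otud1-/- 3, so its sign depended on both. Thinning every library to 9478 V reads changed the 6 values little (7.42 to 38.0).

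To reach 50% of the light chain V reads took 13, 8 and 10 segments in WT 1, 2 and 3 and 16, 9 and 5 in Otud1-/- 1, 2 and 3. The 10 leading segments of each library took 44.1%, 57.0% and 50.4% in the WT libraries and 38.4%, 53.6% and 61.0% in the Otud1-/- libraries. The label means, 50.5% ± 6.47 and 51.0% ± 11.5 (SD, n = 3 each), differed by 0.47 percentage points, far less than the spread.

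**Figure D4:**
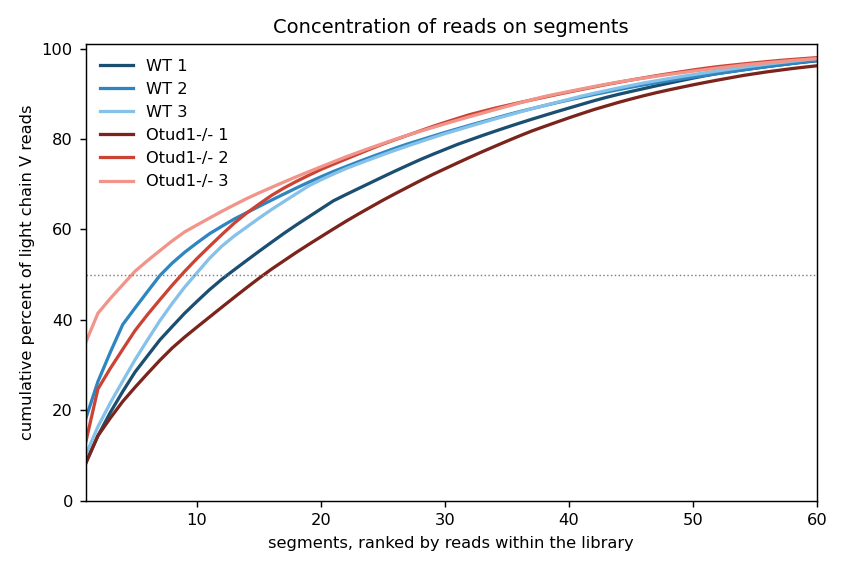
Lines give the cumulative percentage of light chain V reads over segments ranked by reads within each library, with a dotted line at 50%. Otud1-/- 3 starts at 34.9% and passes 50% with 5 segments, Otud1-/- 1 needs 16 segments, and the WT libraries lie between.

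Segment use was nevertheless broadly alike across the libraries. Spearman correlations of the shares over the 91 segments lay between 0.657 and 0.796 within the WT libraries, between 0.761 and 0.817 within the Otud1-/- libraries and between 0.635 and 0.861 across the labels. They are given as descriptions, since all points share the germline and the libraries. The 10 leading segments of any pair of libraries had 5 to 8 in common.

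By family, Igkv4 was the most numerous, with 24 segments and 16.2% to 26.3% of kappa reads. Its summed normalised reads were 6928, 4563 and 4351 in WT 1, 2 and 3 and 1389, 3150 and 1500 in Otud1-/- 1, 2 and 3, and 20 of its 24 segments had negative changes. As a share of kappa reads Igkv4 overlapped between the labels, at 24.7%, 17.9% and 26.3% and then 19.0%, 19.9% and 16.2%. The family was lower in level together with the kappa total, and not clearly lower within it.

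Igkv1, with 7 segments, took 10.2%, 15.5% and 11.8% of kappa reads in WT 1, 2 and 3 and 13.3%, 24.8% and 18.0% in Otud1-/- 1, 2 and 3, and its summed levels overlapped. Igkv6 (8 segments) ranged from 7.92% to 17.6%, Igkv8 (8 segments) from 8.25% to 14.8% and Igkv3 (8 segments) from 3.497% to 11.05%. In Igkv3 all 8 segments had negative changes, with a median of -1.27 on the log2 scale. The summed levels of Igkv6, Igkv8 and Igkv3 did not overlap between the labels. For Igkv6 the labels nearly touched, at 1973 normalised reads in WT 3 and 1937 in Otud1-/- 2.

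Along the kappa locus, reads came from both ends and both orientations. The 44 segments farthest from Igkc, 1327 to 3117 kb upstream, took 40.2%, 59.9% and 33.5% of kappa reads in WT 1, 2 and 3 and 43.4%, 56.6% and 47.6% in Otud1-/- 1, 2 and 3. The 31 segments on the strand of Igkc took 40.4%, 56.3% and 34.6% and then 39.5%, 44.2% and 46.4%. Both splits overlapped between the labels, and the highest share in each was in WT 2, where Igkv16-104 is a distal segment on the strand of Igkc.

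**Figure D5:**
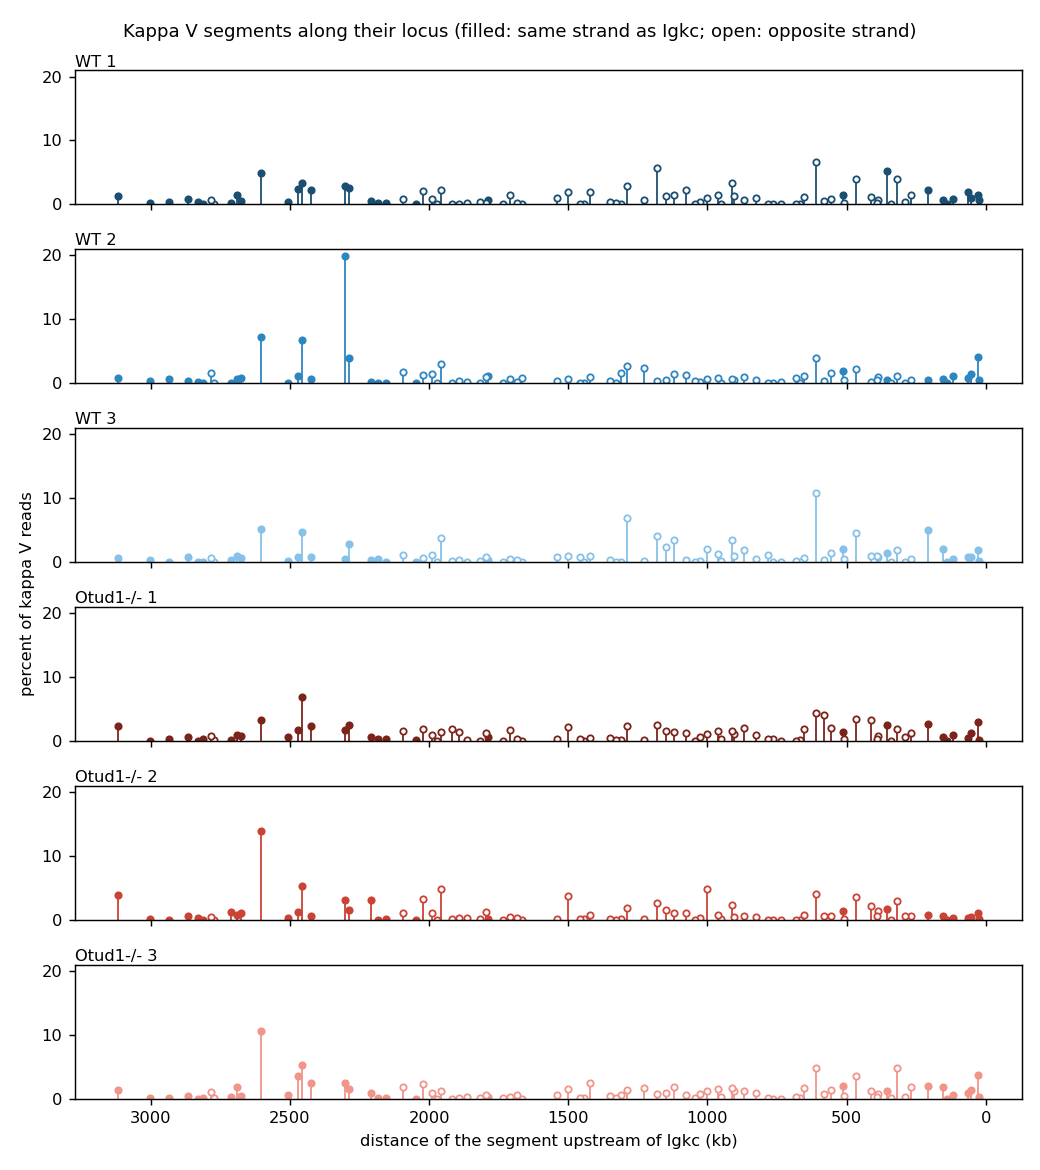
For each library, stems give the percentage of kappa V reads on each of the 88 kappa segments against its distance upstream of Igkc in kb (filled points on the strand of Igkc, open points on the opposite strand). The tallest stem is Igkv16-104 in WT 2 at 19.9%, followed by Igkv1-117 in Otud1-/- 2 at 14.0%.

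Light chain V reads kept a nearly fixed ratio to Jchain, the joining chain of secreted IgA and IgM. The ratio of summed light chain V reads to Jchain reads was 1.13, 1.06 and 1.14 in WT 1, 2 and 3 and 0.953, 1.04 and 1.18 in Otud1-/- 1, 2 and 3, while the V sum itself ranged from 8088 to 31263 normalised reads. Jchain had 27661, 26693 and 15530 and then 8486, 17731 and 12714 (log2 change -0.86 ± 0.33 SE, limma, adjusted p = 0.217). Per kilobase, kappa V reads were 0.425 to 0.568 of Igkc reads in all 6 libraries. Both ratios overlapped between the labels.

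Other genes of light chain expression and of the cells that carry it were not called. In the list of light chain constant and joining genes 0 of 11 tested passed, 9 with negative changes (median -1.08 on the log2 scale), and Igkc itself had 70842, 69066 and 50985 normalised reads in WT 1, 2 and 3 and 21110, 53058 and 28813 in Otud1-/- 1, 2 and 3 (limma, adjusted p = 0.178). Of 12 plasma cell genes 0 passed and 10 had negative changes (median -0.68). Their summed level was 30089 to 44264 in the WT libraries and 21418 to 31660 in the Otud1-/- libraries, and the labels overlapped. Jchain, described above, was the largest part of that sum in every library. Sdc1, also in it, had 5053, 5801 and 5139 normalised reads in WT 1, 2 and 3. It had 7104, 6563 and 4663 in Otud1-/- 1, 2 and 3, and was thus highest in Otud1-/- 1, where Jchain was lowest. Of 12 B cell genes 0 passed and all 12 had negative changes (median -0.94). The B cell sum was 18077 in WT 1 and 2474 to 6795 in the other 5 libraries. WT 1 thus stood out in B cell genes but not in V reads relative to Jchain. Of 6 germinal centre genes 0 passed and 5 had negative changes, with a median of only -0.13. Their sum was 544 to 706 in the WT libraries and 557 to 623 in the Otud1-/- libraries, and the labels overlapped.

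Of the 3 recombination and surrogate light chain genes tested 0 passed (median -0.96). Dntt, which adds bases at V(D)J junctions, had at most 8.46 normalised reads and the surrogate light chain gene Vpreb1 at most 11.2. Rag1, Rag2, Igll1 and Vpreb2 were not analysed here. Vpreb3, which is also made by mature B cells, had 219 in WT 1 and 46.1 to 90.7 elsewhere.

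Markers of smooth muscle were higher in the Otud1-/- libraries. Their summed level over 6 genes was 28056 to 31258 in the WT libraries and 45995 to 94022 in the Otud1-/- libraries. Of these 6 genes 2 were called higher (limma, adjusted p under 0.05), against 0.282% of all tested genes. Their median log2 change was 1.15. The sum of 8 epithelial genes was 342876 to 399850 and 216003 to 341574, the labels nearly touching (0 of 8 passed; median -0.57). That of 6 T cell genes was 422 to 1213 and 316 to 620 and overlapped (0 of 6 passed; median -0.39). None of these markers was at 0 in all libraries, and their part in the V segment values was not tested.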

How the data were processed

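The authors deposited 1 table of a normalised signal per gene for the 6 libraries, with mm10 named as genome build by the submitters' processing notes. For the aligner, the counter, strand use and multiply mapped reads, the sources used here give nothing. Every value was a whole multiple of 1 step per library (100% within 0.001 of a read), so whole reads were recovered, and the steps were the reciprocals of median-of-ratios size factors. IDs were matched to GENCODE M21 without the version suffix (21317 of 21374). Exon lengths, coordinates and V exon sequences came from it.

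Genes with at least 1 normalised read in at least 3 libraries were tested with limma 3.58.1 (trend and robust eBayes, R 4.3.3) on log2(value + 1), the pseudocount being 1, in a model of the labelled genotype alone. Tests were two-sided and adjusted by Benjamini-Hochberg over all tested genes. The fold changes understate changes of genes with few reads. edgeR 4.0.16 and DESeq2 1.42.0 on recovered reads were alternatives. The limma fit was run on simulated data with independent genes and the same spread setting for every gene. That simulation was not matched to the larger spread of the segments, so it cannot speak for their calls. Sums, shares and indices over segments carry no test. Identities came from global alignment (Biopython 1.88). Named segments were all lambda segments, the 10 highest by mean, the 3 leading in each library, those called, and the 3 largest changes each way at a mean of at least 10. The members, lists and rules were chosen with earlier results of these data known.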

Additional observations from a re-analysis of the deposited data

How the results depend on the processing

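The count of 3 called segments was the least stable result. It was 22 with DESeq2, which called 1412 genes in all. With edgeR on recovered reads, which called 62 genes in all, it was 0 (27 segments at an unadjusted p under 0.05, as had 22.6% of all genes). The count was also 0 with limma without trend and robust, which called 0 of 21281 genes (20 segments at an unadjusted p under 0.05, and 16.4% of all genes). It was 1 with the replicate block, which called 18 genes in all. Leaving out single libraries gave 0 to 8. The count was 0 without each WT library (35, 11 and 10 genes called in all). Without Otud1-/- 1, 2 and 3 in turn it was 3, 8 and 1 (333, 340 and 114 genes called in all). It was 2 to 4 under the other filters, pseudocounts and scalings (118 to 413 genes called in all). It was 4 without WT 1 and Otud1-/- 1 together (394 genes called in all), an alternative chosen after seeing the data. The median log2 change of the segments stayed between -1.15 and -0.64 under all 17 alternatives. The summed kappa level kept its sign in all 12 alternatives run (-1.49 to -0.74). The summed lambda level (-0.47 to 1.11), the effective number of segments (-12.2 to 6.42) and the share of the 10 leading segments (-6.81 to 6.76 percentage points) changed sign among their alternatives but moved by less than the SD between libraries. The lambda share difference ranged from 3.02 to 18.1 percentage points.

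Whether the replicate numbers pair the libraries is not known. Same-numbered libraries deviated from their label means with correlations of -0.26, -0.10 and -0.09, and differently numbered ones with -0.08 to 0.16. Deviations from a label mean cancel out within the label, so these correlations depend on one another and cannot decide it. With 9478 to 29955 V reads a library, segments with few reads are known only within wide counting error.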

Other observations

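Rows annotated as light chain variable pseudogenes were nearly silent. The 4 pseudogene rows with a value in the table (of 60 annotated) had at most 7.52 normalised reads in any library. Among the kappa joining segments, Igkj5 had 88.6, 85.6 and 54.0 normalised reads in WT 1, 2 and 3 and 24.7, 63.0 and 40.4 in Otud1-/- 1, 2 and 3. Iglj1, the joining segment beside Iglc1, had 13.7, 4.70 and 2.04 and then 0.853, 10.1 and 23.2, so it was highest in Otud1-/- 3, as Iglv1 and Iglc1 were.

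The highest value of a segment over the 6 libraries lay in WT 1 for 32 of the 91 segments and in WT 2 for 28.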
